A study of Mus musculus with 10 samples.

Results

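Netrins, netrin-Gs and netrin receptors were followed in RNA bound to tagged ribosomes of hippocampal Drd2-Cre cells. The 10 genes were chosen by symbol among the 54838 gene identifiers of the count files: the secreted ligands Ntn1 and Ntn4, the membrane-anchored ligands Ntng1 and Ntng2, and the receptors Dcc, Neo1, Unc5a, Unc5b, Unc5c and Unc5d. The libraries came from translating ribosome affinity purification (TRAP), in which an EGFP-tagged ribosomal protein L10a is switched on by Cre and its ribosomes are precipitated with the messenger RNA they carry. All 10 libraries came from untreated male C57BL/6 mice about 10 weeks old with the genotype Drd2-Cre;Eef1a1LSL.eGFPL10a/+. In 5 libraries the tissue was dorsal hippocampus and in 5 it was the longer ventral remainder with the ventral subiculum trimmed off, and each library was made from 5 pooled mice, so each replicate is a pool and p-values measure the spread between pools. Drd2-Cre drives the tag mainly in mossy cells, the glutamatergic neurons of the dentate hilus, and also in scattered GABAergic interneurons and in subicular neurons. From its imaging and quantitative PCR the study calls the tagged population enriched for mossy cells without being pure. The 10 libraries hold no unbound RNA, so this enrichment cannot be measured in them.

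Netrins are laminin-related guidance cues. Dcc and its relative neogenin (Neo1) draw growing axons towards a netrin source, whereas the Unc5 receptors, alone or together with Dcc, turn axons away from it, and in adult brain the same receptors sit at synapses. Netrin-Gs are tethered to the axon surface by a lipid anchor, do not use Dcc or Unc5, and pair across the synapse with the netrin-G ligands Lrrc4c and Lrrc4.

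The total of counts on genes was 11138676 to 16779821 per dorsal library and 11618625 to 20594364 per ventral library. Levels are given in CPM, the count scaled to a common library total with TMM factors, and 3 counts, the smallest level taken as detected, equalled 0.142 to 0.282 CPM, a floor that covers counting error only. Read pairs that fell outside annotated genes made up 21.8 to 33.9% of all pairs on genes, outside genes or ambiguous between genes in dorsal libraries and 11.6 to 19.3% in ventral libraries, so the groups did not overlap in this measure of the libraries. The 7 mossy cell markers were all detected, with a summed level of 1731 to 2005 CPM dorsally and 1794 to 2102 CPM ventrally. Gria2 alone averaged 1143 CPM dorsally and 651 CPM ventrally, whereas Drd2 averaged 28.1 and 20.7 CPM and Calcrl 7.52 and 8.25 CPM. The sums thus rest on a few abundant genes and do not measure the share of mossy cells. These sums hide opposite differences, since 3 of the 7 passed the test as higher dorsally (Gria2, Gria3 and Cyp26b1) and 2 as higher ventrally (Satb1 and Calb2). Interneuron markers were also high, 3176 to 4292 CPM dorsally and 3840 to 5074 CPM ventrally over 7 genes, and 4 of them passed the test as higher in ventral libraries. Oligodendrocyte markers summed to 2199 to 2574 CPM dorsally and 792 to 1453 CPM ventrally over 6 genes, of which 3 passed the test as higher dorsally, and astrocyte markers summed to 171 to 230 CPM and 61.8 to 185 CPM over 5 genes, of which 3 passed as higher dorsally and 1 (Aldh1l1) ventrally. Granule cell markers summed to 276 to 338 CPM dorsally and 119 to 268 CPM ventrally over 4 genes, without overlap, and 1 of them (Prox1) passed as higher dorsally. CA pyramidal markers summed to 701 to 778 CPM dorsally and 648 to 768 CPM ventrally over 5 genes. Endothelial markers summed to 4.61 to 30.7 CPM dorsally and 8.28 to 43.1 CPM ventrally over 4 genes. In both of these lists 0 genes passed the test. No marker of any list was at 0 in every library. The part of these other cell types in the results was not tested, and in such bulk libraries fewer cells of a type and less RNA per cell cannot be told apart.

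The 250 bases before the RefSeq start of the 2 members that differed between the regions, Ntn4 and Neo1, are shown on the coding strand of build GRCm38.p6, with GC boxes in capitals (GGGCGG or, on the other strand, CCGCCC). The Ntn4 window is chr10:93640799-93641048 on the plus strand and the Neo1 window is chr9:59036442-59036691 on the minus strand. A short annotated transcript of Ntn4 starts upstream of its window, which overlaps no annotated exon of the gene.
Ntn4: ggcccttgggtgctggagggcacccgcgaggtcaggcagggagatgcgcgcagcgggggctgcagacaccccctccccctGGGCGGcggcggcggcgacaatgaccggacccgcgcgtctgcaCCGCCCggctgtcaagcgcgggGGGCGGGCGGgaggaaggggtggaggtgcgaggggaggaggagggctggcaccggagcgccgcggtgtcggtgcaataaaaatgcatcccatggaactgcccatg
Neo1: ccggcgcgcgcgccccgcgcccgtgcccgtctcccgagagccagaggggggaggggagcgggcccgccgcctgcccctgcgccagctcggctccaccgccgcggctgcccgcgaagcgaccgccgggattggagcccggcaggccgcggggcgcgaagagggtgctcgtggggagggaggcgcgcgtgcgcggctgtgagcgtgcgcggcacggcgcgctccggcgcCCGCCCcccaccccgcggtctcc
Both windows were rich in GC, at 73.2% for Ntn4 and 83.2% for Neo1. The Ntn4 window held 4 GC boxes, of which 2 overlap in 1 run, and 26 CpG dinucleotides, and the Neo1 window held 1 GC box and 45 CpG dinucleotides, against a median of 6 CpG dinucleotides over 32851 windows of the same length. No more CpG dinucleotides than in the Neo1 window were found in 99.7% of all windows. Neither window held TATAAA on either strand, which 12.4% of all windows did, and a CCAAT box was found before Neo1 and not before Ntn4, against 33.8% of all windows. Over the 7 members with a RefSeq window (Ntn4, Ntng1, Ntng2, Neo1, Unc5a, Unc5b and Unc5c), 5 held a GC box, which 32.7% of all windows did, 2 a CCAAT box and 0 a TATAAA motif. These matches describe the letters of the windows and say nothing about binding.

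Dorsal and ventral libraries were compared to find which members of the netrin system differ along the long axis of the hippocampus. Ntn4 and Neo1 were higher in dorsal libraries, and no member was called higher in ventral libraries. The difference was 3.84-fold for Ntn4 and 1.52-fold for Neo1 in mean CPM. The 2 netrin-Gs, Dcc, Ntn1 and the 4 Unc5 receptors did not pass the test. Calls required an adjusted p below 0.05 in edgeR's quasi-likelihood test and a log2 ratio of the group means, each with 1 CPM added, beyond 0.58 in either direction. All 10 members passed the filter on low counts, and 2 of the 10 were called dorsal, beside 15.7% of the 16806 tested genes, and 0 ventral, beside 9.85% (25.5% in either direction). The same 2 members passed the adjusted p alone, beside 33.6% of tested genes in either direction. They were also the only members whose libraries did not overlap between regions, both with dorsal higher, beside 9.81% of tested genes with dorsal higher, 8.36% with ventral higher and 18.2% in all. These shares lie near the background of all genes, so the counts say nothing particular about the netrin system. The median log2 fold change (dorsal over ventral) was 0.05 over the members and -0.0044 over all tested genes.

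**Figure D1:**
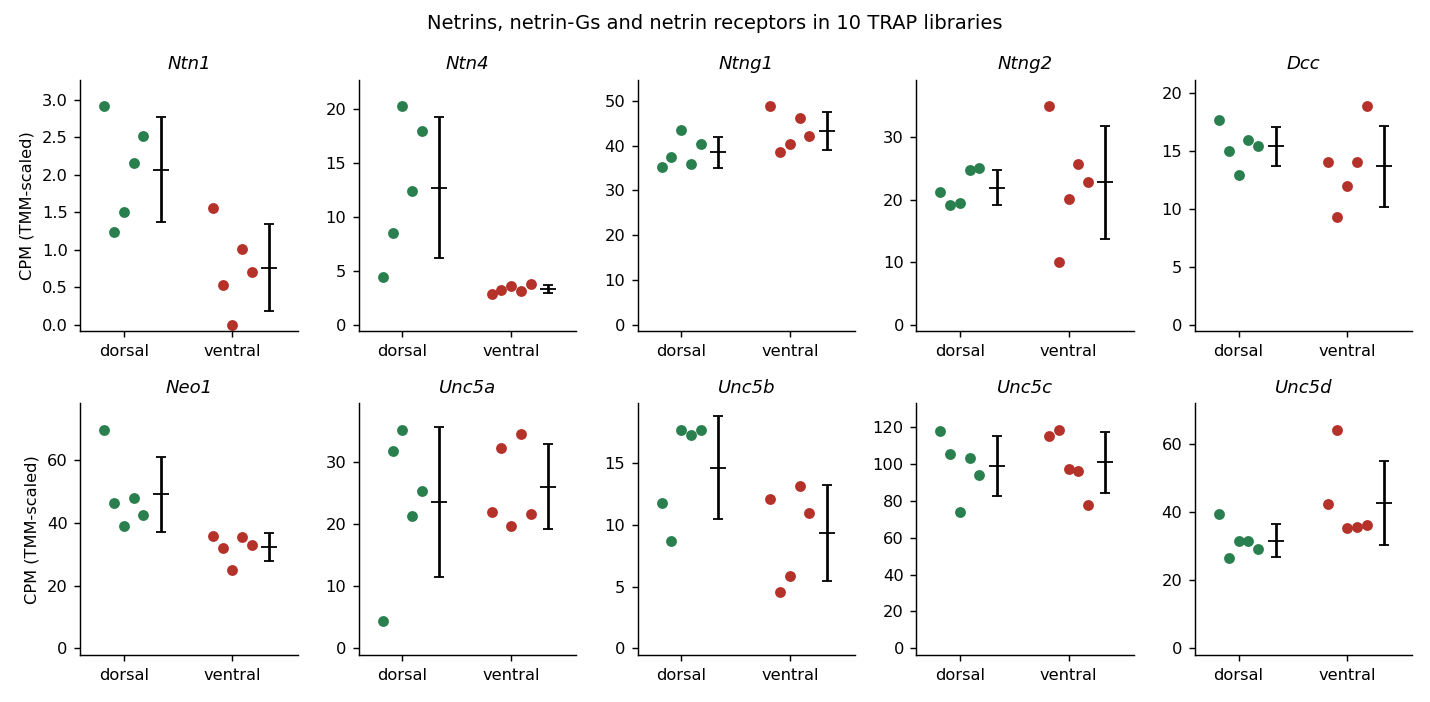
Level of each of the 10 genes in CPM (TMM-scaled, linear axis) in each of the 5 dorsal (green) and 5 ventral (red) libraries, in replicate order from left to right; the black bars are the mean and SD of each group. Only Ntn4 and Neo1 have dorsal points that all lie above all ventral points, Ntn4 with a lowest dorsal value of 4.42 against a highest ventral value of 3.78.

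Ntn4 encodes a secreted netrin of basement membranes whose laminin-like domain binds laminin chains. The gene (ENSMUSG00000020019) spans chromosome 10 from 93640681 to 93747207 on the plus strand of GRCm38. Its level in dorsal libraries 1 to 5 was 4.42, 8.51, 20.3, 12.4 and 18 CPM, and in ventral libraries 1 to 5 it was 2.83, 3.26, 3.55, 3.16 and 3.78 CPM. All dorsal libraries lay above all ventral ones, but the dorsal libraries were spread over a wide range, with library 1 close to the ventral values. The means were 12.7 ± 6.56 CPM (SD, n = 5) and 3.31 ± 0.364 CPM (SD, n = 5), and the log2 fold change was 1.96 (SE 0.37, 95% confidence interval 1.16 to 2.75, adjusted p = 0.00172 by edgeR's quasi-likelihood test). Leaving out any of the 10 libraries kept the log2 fold change between 1.73 and 2.14 with adjusted p from 0.000345 to 0.00625. The dorsal libraries with the most read pairs outside genes, 3, 2 and 5, held 20.3, 8.51 and 18 CPM, and with that share as a covariate the log2 fold change was 0.81 and the call was lost (adjusted p = 0.45). The share moved with the region, and its part in the difference was not tested.

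Ntn1, the founding netrin that attracts commissural axons, was the least abundant member. It lies on chromosome 11 from 68209364 to 68400823 on the minus strand (ENSMUSG00000020902). Dorsal libraries held 2.92, 1.23, 1.5, 2.16 and 2.51 CPM, which rest on 19 to 36 counts, and ventral libraries held 1.55, 0.528, 0, 1.01 and 0.708 CPM, which rest on 0 to 28 counts. Ventral library 1 lay above dorsal libraries 2 and 3, and ventral library 3 had no count, which allows up to 0.253 CPM. The log2 fold change was 1.26 (SE 0.51, 95% confidence interval 0.19 to 2.34), and it missed the threshold (adjusted p = 0.0646, edgeR). It passed without dorsal library 2 (1.41, adjusted p = 0.043) and without ventral library 1 (1.69, adjusted p = 0.0323), and it was called dorsal under each of 3 corrections for GC content, with exonic length, with the replicate number added as a block and with genomic span added (1.44, 1.74 and 1.38, adjusted p = 0.0425, 0.00945 and 0.0496), so the call depended on single libraries and on the processing.

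Ntng1 encodes netrin-G1, the partner of Lrrc4c, and lies on chromosome 3 from 109780040 to 110144011 on the minus strand (ENSMUSG00000059857). It was at 35.3, 37.5, 43.5, 35.9 and 40.5 CPM in the dorsal and at 48.9, 38.6, 40.4, 46.2 and 42.3 CPM in the ventral libraries. The ranges overlapped, with ventral libraries 1 and 4 above every dorsal one. The log2 fold change was -0.17 (SE 0.12, 95% confidence interval -0.43 to 0.09, adjusted p = 0.285, edgeR).

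Ntng2 encodes netrin-G2, the partner of Lrrc4, and lies on chromosome 2 from 29194541 to 29253005 on the minus strand (ENSMUSG00000035513). The dorsal libraries held 21.3, 19.2, 19.4, 24.7 and 25.1 CPM and the ventral libraries 35.0, 10.04, 20.1, 25.7 and 22.8 CPM. The ventral libraries held both the highest and the lowest value, so that the dorsal range lay inside the ventral one. Dorsal over ventral, the log2 fold change was -0.09 (SE 0.24, 95% confidence interval -0.60 to 0.42, adjusted p = 0.79, edgeR). Of its exonic length 14% is shared with the transcript 6530402F18Rik on the same strand, which was at 2.52 CPM dorsally and 4.63 CPM ventrally, so a part of its reads may not be counted to either gene.

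Dcc, the receptor through which Ntn1 attracts axons, lies on chromosome 18 (ENSMUSG00000060534) and has the longest genomic span of the members, 1097436 bases. It was at 17.7, 15.0, 12.9, 15.9 and 15.4 CPM in dorsal and at 14.0, 9.33, 12, 14.0 and 18.9 CPM in ventral libraries. The ranges overlapped, and the highest and the lowest values were both ventral. This gave a log2 fold change of 0.12 (SE 0.19, 95% confidence interval -0.29 to 0.53, adjusted p = 0.663, edgeR).

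Neo1 encodes neogenin, a relative of Dcc that binds netrins and also the repulsive guidance molecules Rgma and Rgmb. It lies on chromosome 9 from 58874687 to 59036441 on the minus strand (ENSMUSG00000032340). Dorsal libraries held 69.7, 46.3, 39.0, 47.9 and 42.6 CPM and ventral libraries 36, 32.0, 25.1, 35.6 and 32.8 CPM. All dorsal values lay above all ventral values, the closest being 39.0 in dorsal library 3 and 36 in ventral library 1, and dorsal library 1 stood apart from the other 4. The means were 49.1 ± 12 CPM (SD, n = 5) and 32.3 ± 4.37 CPM (SD, n = 5), with a log2 fold change of 0.58 (SE 0.17, 95% confidence interval 0.23 to 0.93, adjusted p = 0.0163, edgeR). The log2 ratio of the means with 1 CPM added was 0.59, just past the threshold of 0.58. Without dorsal library 1 the log2 fold change was 0.44 (adjusted p = 0.0231) and without ventral library 3 it was 0.51 (adjusted p = 0.0314), and in both cases the fold fell below the threshold for a call. With the share of pairs outside genes added as a covariate it was 1.24 (adjusted p = 0.0118), and with a correction for GC content, exonic length and genomic span it was 0.41 (adjusted p = 0.0599), or 0.56 relative to the median of all genes, which that correction moved.

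**Figure D2:**
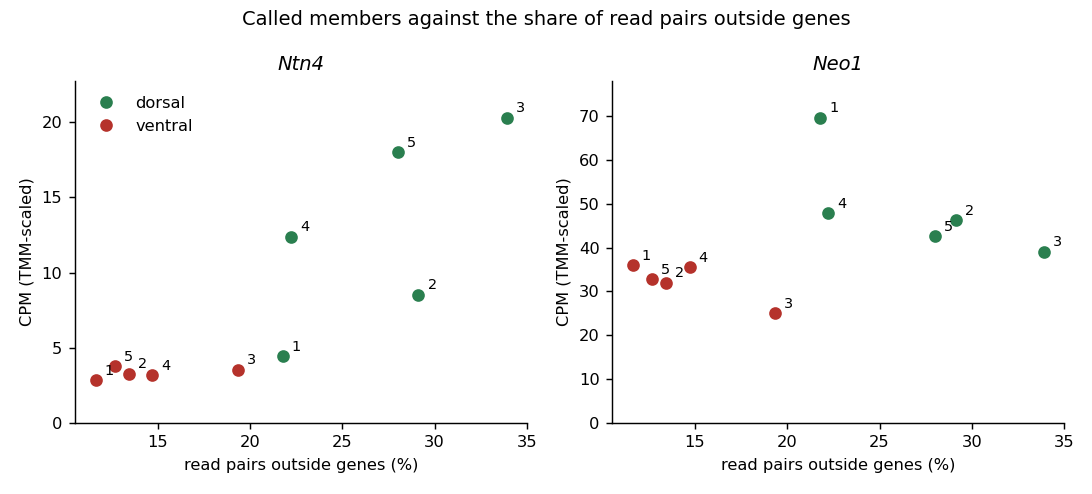
Level of Ntn4 (left) and Neo1 (right) in CPM against the percentage of read pairs outside genes in each library; points are libraries, labelled by replicate number, dorsal in green and ventral in red. The regions do not overlap on the horizontal axis (11.6 to 19.3% ventral, 21.8 to 33.9% dorsal); the highest Ntn4 point, 20.3 CPM, is the dorsal library with the highest share, whereas the highest Neo1 point, 69.7 CPM, is the dorsal library with the lowest share.

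Among the Unc5 receptors, which carry a death domain inside the cell and mediate repulsion, none passed the test. Unc5a, on chromosome 13 from 54949411 to 55006018 on the plus strand (ENSMUSG00000025876), was at 4.33, 31.7, 35.2, 21.3 and 25.4 CPM in dorsal and at 22.0, 32.2, 19.7, 34.5 and 21.5 CPM in ventral libraries. Dorsal library 1 was far below the other 9 libraries, which overlapped, and the log2 fold change was -0.09 (SE 0.32, 95% confidence interval -0.78 to 0.60, adjusted p = 0.852, edgeR). The interval is wide enough to hold a fold past the threshold in either direction, so a difference of that size is not excluded here.

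Unc5b, the Unc5 receptor of blood vessels as well as neurons, lies on chromosome 10 from 60762593 to 60831581 on the minus strand (ENSMUSG00000020099). It was at 11.8, 8.71, 17.7, 17.2 and 17.7 CPM in dorsal and at 12.1, 4.58, 5.83, 13.2 and 11 CPM in ventral libraries. Dorsal libraries 3, 4 and 5 lay above every ventral library and dorsal libraries 1 and 2 lay among them. The log2 fold change was 0.58 (SE 0.28, 95% confidence interval -0.02 to 1.18) with an adjusted p of 0.122 in edgeR, and without dorsal library 2 it was 0.74 (adjusted p = 0.0467). It was called dorsal under each of the 3 corrections for GC content (0.76, 0.87 and 0.77, adjusted p = 0.0347, 0.00563 and 0.0358, edgeR).

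Unc5c had the most counts of the members and the longest exonic length, 19135 bases. It lies on chromosome 3 from 141465216 to 141834924 on the plus strand (ENSMUSG00000059921). The dorsal libraries held 118, 105, 74.2, 103 and 94.1 CPM and the ventral libraries 115, 119, 97.2, 96.4 and 77.6 CPM. The regions overlapped over nearly their whole range, and the log2 fold change of -0.03 had a 95% confidence interval of -0.33 to 0.28 (SE 0.14, adjusted p = 0.908, edgeR), which holds no fold past the threshold of 0.58.

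Unc5d, which also serves as a receptor of the Flrt2 protein, lies on chromosome 8 from 28646717 to 29219636 on the minus strand (ENSMUSG00000063626). It was at 39.5, 26.5, 31.6, 31.7 and 29.2 CPM in dorsal and at 42.5, 64.4, 35.4, 35.7 and 36.3 CPM in ventral libraries. Dorsal library 1 lay above 3 ventral libraries, the other 4 dorsal libraries lay below all ventral ones, and ventral library 2 stood apart at the top. The log2 fold change was -0.43 (SE 0.18, 95% confidence interval -0.82 to -0.04), with an adjusted p of 0.0812 in edgeR that missed the threshold. It was -0.26 without ventral library 2 and -0.51 without dorsal library 1 (adjusted p = 0.174 and 0.0501). With each of the 3 corrections for GC content it was called ventral, at -0.65, -0.62 and -0.63 (adjusted p = 0.0211, 0.0341 and 0.017, edgeR), or -0.47, -0.45 and -0.48 relative to the median of all genes, which these corrections lowered.

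**Figure D3:**
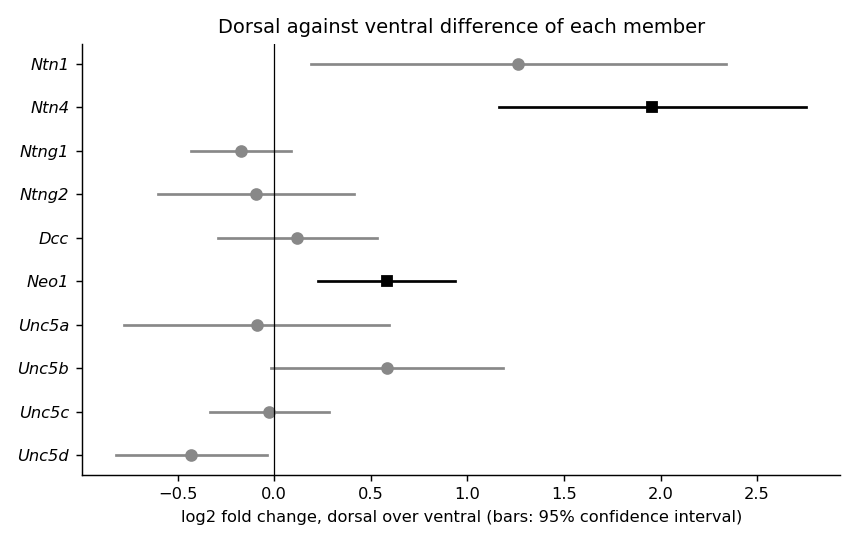
Log2 fold change (dorsal over ventral) of each of the 10 genes from edgeR's quasi-likelihood test; points are estimates, horizontal bars are 95% confidence intervals, and black squares mark the called genes. Ntn4 (1.96) and Neo1 (0.58) are called; the interval of Ntn1 lies above 0 and that of Unc5d below 0, but neither gene passed after adjustment over 16806 genes.

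Levels of different genes were compared per length, in CPM per kilobase of exon. This length merges all annotated exons of a gene and can exceed that of the transcripts expressed, and the order depends on it. In dorsal libraries the order of mean levels was Unc5a (5.65), Neo1 (5.63), Ntng2 (5.49), Unc5c (5.18), Ntng1 (4.68), Unc5d (3.44), Ntn4 (3.40), Unc5b (2.33), Dcc (1.17) and Ntn1 (0.329). Among neighbours in this order only Unc5b against Dcc and Dcc against Ntn1 had library ranges that did not overlap. In ventral libraries the order was Unc5a (6.23), Ntng2 (5.70), Unc5c (5.28), Ntng1 (5.25), Unc5d (4.65), Neo1 (3.70), Unc5b (1.49), Dcc (1.04), Ntn4 (0.886) and Ntn1 (0.121). Here the neighbours without overlap were Neo1 against Unc5b and Ntn4 against Ntn1. Ntn4 thus stood among the middle members dorsally and next to the lowest ventrally, and Ntn1 was lowest in both regions. Among all tested genes, ranked by level per length over the 10 libraries, the members ran from the 5.73 percentile (Ntn1) to the 64.9 percentile (Unc5a).

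**Figure D4:**
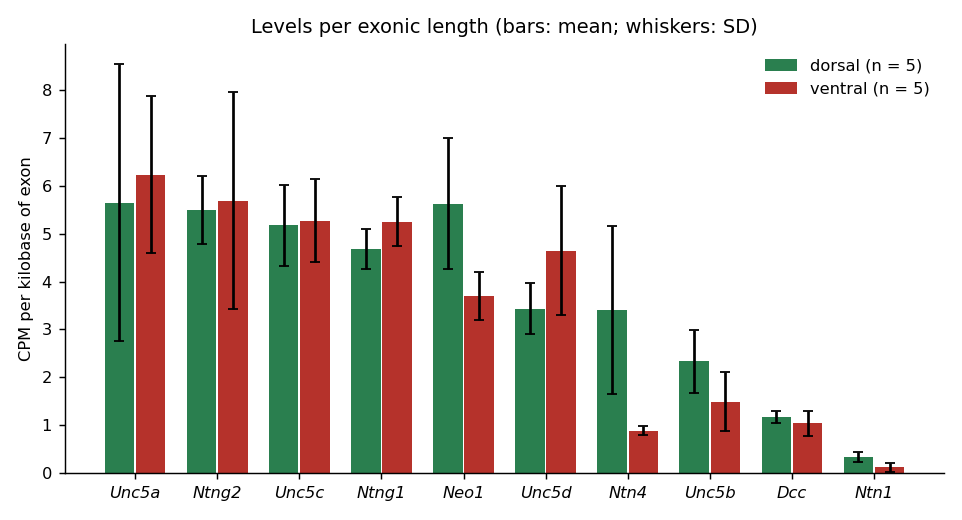
Mean level per exonic length (CPM per kilobase of exon, linear axis from 0) of each of the 10 genes in dorsal (green) and ventral (red) libraries; whiskers are the SD over 5 libraries. Receptors and netrin-Gs reach 4.65 or more in at least 1 region except Unc5b and Dcc, and the secreted ligands Ntn4 and Ntn1 stay at 3.40 or below.

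The balance between related members was described per library with no test, since it rests on the same counts. Netrin-G2 made up 53.9 ± 4.24% (SD, n = 5) of the netrin-G level per length in dorsal and 50.3 ± 9.22% (SD, n = 5) in ventral libraries, with overlapping ranges of 48.0 to 58.7% and 34.9 to 59.6%. Dcc made up 17.5 ± 1.84% of the sum of Dcc and Neo1 in dorsal libraries (14.4 to 19.3%) and 21.8 ± 4.27% in ventral libraries (16.2 to 27.6%), so that neogenin was the larger part of this receptor pair in every library. The summed level of the 4 Unc5 receptors was 2.56 ± 0.717 times that of Dcc and Neo1 in dorsal libraries (1.43 to 3.40) and 3.77 ± 0.757 times in ventral libraries (2.87 to 4.94). In every library the Unc5 receptors together thus exceeded Dcc and neogenin together.

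The protein-coding genes whose profile over the 10 libraries was closest to that of Ntn4 were Gp1ba, Adck2 and Tfap2b, at root-mean-square distances of 0.18, 0.22 and 0.25 in centred log2(CPM + 1), against a median of 0.98 over 13548 genes. Gp1ba (2.51 CPM dorsally, 0.200 ventrally) and Tfap2b (2.93 and 0.116 CPM) were at or near the floor of 3 counts ventrally. Their log2 fold changes were 3.89 and 4.46, against 1.88 for Adck2 and 1.96 for Ntn4. The added 1 CPM shrinks differences at such low levels. Closest to Neo1 were Birc6, Kcnk1 and Adgrl3, at 0.11, 0.12 and 0.12 against a median of 0.53. These distances describe likeness of pattern over 10 libraries that share the same regions, and nothing more.

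Further genes of the pathway were taken from a list of 42 partners: other netrins and receptors, netrin-G ligands, other ligands of neogenin, Dcc and Unc5, and intracellular partners. Of these, 41 were tested, 3 were called dorsal (Dscam, Flrt2 and Nck1) and 4 ventral (Dock1, Trim67, Tubb3 and Siah1b), beside 15.7% and 9.85% of all tested genes. At an adjusted p below 0.05 without the fold threshold, 7 were higher dorsally and 6 ventrally, beside 19.0% and 14.6% of tested genes, and 28 did not pass. The median log2 fold change of the partners was -0.04. With the share of pairs outside genes added as a covariate, 0 partners were called in either direction, beside 834 dorsal and 339 ventral calls among all genes.

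Dscam, a cell adhesion molecule that acts as a netrin receptor beside Dcc, was at 54.9, 46.1, 58.9, 56.9 and 56.6 CPM in dorsal and at 35.3, 26.5, 35.8, 35.0 and 36.3 CPM in ventral libraries. All dorsal values lay above all ventral ones. The log2 fold change was 0.68 (SE 0.13, adjusted p = 0.00144, edgeR), and its paralogue Dscaml1 was at 0.43 and did not pass (adjusted p = 0.0912). Of the exonic length of Dscam, 3.1% is shared with overlapping transcripts.

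The secreted netrins outside the chosen 10 were at low levels. Ntn3 was at 1.58 ± 0.734 CPM dorsally and 1.79 ± 0.974 CPM ventrally (SD, n = 5 each), with a log2 fold change of -0.21 (SE 0.46, adjusted p = 0.759, edgeR), and Ntn5, which shares 23.4% of its exonic length with another gene, was lower still. None of the 3 genes of the netrin-G ligand family passed. Lrrc4c, the ligand of netrin-G1 on the opposite side of the synapse, was the highest of them per length, at 41.0 CPM per kilobase in dorsal and 47.6 CPM per kilobase in ventral libraries, and its log2 fold change was -0.22 (SE 0.12, adjusted p = 0.171, edgeR).

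Of the 7 other ligands that were tested, Flrt2 alone passed. It encodes a leucine-rich repeat membrane protein that repels Unc5-bearing axons, and it was at 92.2, 146, 122, 105 and 124 CPM in dorsal and at 81.0, 70.8, 90.8, 79.7 and 69.3 CPM in ventral libraries. The dorsal libraries all lay above the ventral ones, by little for dorsal library 1, and the log2 fold change was 0.59 (SE 0.13, adjusted p = 0.00439, edgeR). Its receptor Unc5d had a log2 fold change of the opposite sign that did not pass, as given above. Rgmb, a repulsive guidance molecule that binds neogenin, was the most abundant ligand per length, at 18.9 CPM per kilobase dorsally and 22.5 CPM per kilobase ventrally (log2 fold change -0.26, SE 0.14, adjusted p = 0.165, edgeR). Hjv, the third of the repulsive guidance molecules, did not pass the filter on low counts: it was at 0.650 to 1.02 CPM in dorsal libraries, and in ventral libraries it was at 0 to 0.0880 CPM, below the floor of 3 counts in each, and it was not tested.

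Of the 27 intracellular partners 5 passed the test dorsally and 6 ventrally, beside 19.0% and 14.6% of all tested genes, and 16 did not pass. Nck1, an adaptor that links Dcc to the actin machinery, was at 29.4, 19.5, 34.3, 28.0 and 26.6 CPM in dorsal and at 15.7, 19.7, 8.61, 12.5 and 11.7 CPM in ventral libraries. Dorsal library 2 lay just below ventral library 2, and the other libraries were separate (log2 fold change 1.02, SE 0.21, adjusted p = 0.00287, edgeR). Past the test but below the fold threshold were the actin regulators Wasl (0.57, adjusted p = 0.00463) and Enah (0.43, adjusted p = 0.0081), the exchange factor Trio (0.35, adjusted p = 0.0165) and the death-associated kinase Dapk1 (0.42, adjusted p = 0.00881), which Unc5 receptors recruit. In each of these 4 genes, named because they passed, all dorsal libraries lay above the highest ventral one. The gap was small for Enah (538.3 against 537.6 CPM), Dapk1 (117 against 115 CPM) and Wasl (583 against 577 CPM), and wider for Trio (178 against 167 CPM). Of the 41 tested partners 9 had no overlap in either direction, beside 18.2% of all tested genes.

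Tubb3, a neuronal tubulin that binds Dcc, was at 204, 190, 129, 180 and 164 CPM in dorsal and at 376, 280, 253, 263 and 318 CPM in ventral libraries. The groups did not overlap, and the log2 fold change was -0.78 (SE 0.14, adjusted p = 0.00112, edgeR). Trim67, a ubiquitin ligase that binds Dcc, was at 1.62 ± 0.965 CPM dorsally and 5.18 ± 0.705 CPM ventrally (SD, n = 5 each) and also did not overlap (log2 fold change -1.64, SE 0.35, adjusted p = 0.00351, edgeR), whereas its paralogue Trim9 was at 0.21 (adjusted p = 0.0926). Dock1, an exchange factor for Rac1, was at 17.8 ± 3.19 CPM and 27.5 ± 9.17 CPM, with ventral library 2, at 12 CPM, below every dorsal one (log2 fold change -0.64, SE 0.23, adjusted p = 0.0476, edgeR). Siah1a and Siah1b, ubiquitin ligases that bind Dcc, were both higher ventrally (-0.55, adjusted p = 0.0359, and -1.15, adjusted p = 0.015), but their near-identical sequences make the division of reads between them uncertain. Pak1, a kinase activated by Rac1 and Cdc42, was at -0.33 (adjusted p = 0.0307). Cdc42 was the most abundant intracellular partner per length, at 243 CPM per kilobase dorsally and 288 CPM per kilobase ventrally, and did not pass (log2 fold change -0.24, adjusted p = 0.0953).

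**Figure D5:**
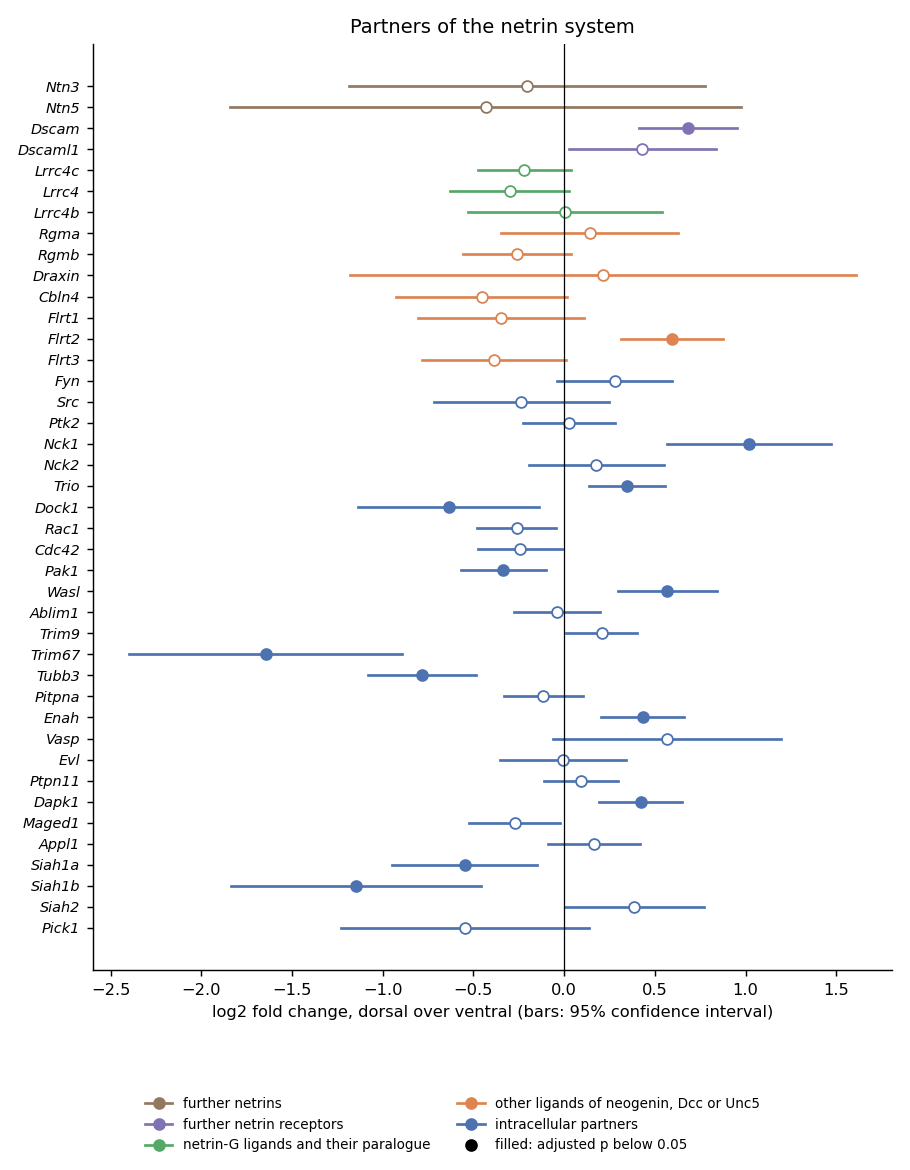
Log2 fold change (dorsal over ventral) of the 41 tested partners from edgeR's quasi-likelihood test; points are estimates, horizontal bars 95% confidence intervals, colours the 5 classes, and filled points pass an adjusted p below 0.05. Filled points lie on both sides of 0, 7 dorsal and 6 ventral, from -1.64 (Trim67) to 1.02 (Nck1).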

How the data were processed

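TRAP RNA from 5 dorsal and 5 ventral hippocampal pools was measured. The authors amplified it (Ovation RNAseq V2), made TruSeq v2 libraries, sequenced paired ends, aligned them to GRCm38 with STAR 2.5.2b and counted per Ensembl gene with HTSeq 0.7.2, and the deposited values are whole-number counts, not normalized. The annotation release and the strand setting are not given in the sources used here. Read pairs outside genes (11.6 to 33.9% of all pairs, per library) and ambiguous pairs (5.92 to 8.66%) stayed out of library sizes and tests. Replicates of a group differed by 4.36 to 45.1 times the noise of sampling (chi-square over its degrees of freedom), so no library was a duplicate.

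Symbols, positions, GC content and exonic length came from GENCODE M21 (54809 of 54838 identifiers matched). Tests were run in edgeR 4.0.16 (R 4.3.3) on genes that exceeded 1 CPM in 2 or more libraries, with TMM factors and the quasi-likelihood test between regions, and Benjamini-Hochberg adjustment over 16806 genes. The SE is the log2 fold change over the square root of F.

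The genes and lists were chosen with earlier results of these data known. Named were every member, partners past an adjusted p of 0.05, the most abundant partner per length of each class, and for each called member the 3 protein-coding genes nearest in pattern. Dscaml1, Ntn5, Trim9 and Hjv were named after their values were seen. Alternatives were other scalings, filters, thresholds and tests (DESeq2 1.42.0 among them), the replicate number as a block, GC and length corrections (mgcv 1.9.3), protein-coding genes alone and each library left out. The edgeR 3 dispersions and the covariate of pairs outside genes were added after the data were seen. The study's methods divide the hippocampi of the same mice into dorsal and ventral parts, so the regions share mice, but neither they nor the labels say that pools of equal number do, and the numbers were treated as unpaired. Promoter windows came from RefSeq (GRCm38.p6). Imaging and quantitative PCR were not analysed here, and protein sequences were not used here.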

Additional observations from a re-analysis of the deposited data

Results flagged for a closer look

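Among 52 groups of 5 libraries examined (the 10 genes, the 13 partners past the test and the 3 ratios between members, in each region), 5 held a library whose distance from the nearest of the other 4 was large for the range of the group. The limit was Dixon's 95% critical value, which by its definition sets apart about 1 in 20 groups of normally distributed values. Neo1 stood at 69.7 CPM in dorsal library 1, with the other dorsal libraries at 39.0 to 47.9. Unc5d stood at 64.4 CPM in ventral library 2, with the others at 35.4 to 42.5. In the same library Dscam was low, at 26.5 CPM against 35.0 to 36.3, and Siah1a was low, at 29.9 CPM against 44.5 to 49.7. Pak1 stood at 580.3 CPM in dorsal library 1, with the others at 394 to 439, which is at the level of the ventral libraries. None of these groups was given a different weight in the test.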

How the results depend on the processing

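Ntn4 passed the test under 13 of 14 alternatives, all but the covariate of pairs outside genes (log2 fold change 0.81), and Neo1 under 13 of 14, all but the correction for GC content, length and span (0.41). Both passed without each single library, but the call of Neo1 also rests on a fold just past the threshold. Of 240 recomputed log2 fold changes of the 10 genes, 203 kept direction and side of the threshold, 19 turned direction, 16 passed newly and 2 were lost, and of 108 counts of calls 94 stayed within 1.5 times.

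The members called dorsal were 1 at an adjusted p below 0.01 and 1 with the share of pairs outside genes as a covariate (added after the data were seen), and 1 to 4 without single libraries: 1 without dorsal library 1 or ventral library 3, which end the call of Neo1, and 4 without dorsal library 2, with Ntn1 and Unc5b. Partners called dorsal were 7 with no fold threshold and 0 with the covariate, and partners called ventral were 2 at an adjusted p below 0.01 and 0 with the covariate. All calls fell with the covariate, from 2636 dorsal and 1655 ventral to 834 and 339.

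The median log2 fold change of all genes, -0.0044 as reported, was -0.17 with the correction for GC content and exonic length, -0.18 with the replicate block added and -0.15 with genomic span added, and these corrections took the share of calls that were dorsal from 61.4% to 39.9, 40.6 and 39.8%. Under each correction 1 member, Unc5d, was called ventral (-0.65 with GC and length, or -0.47 relative to the median of all genes). Ntn1 (1.44) and Unc5b (0.76) were called dorsal. Neo1 lost its call (0.51, 0.51 and 0.41, or 0.68, 0.69 and 0.56 on that scale, against 0.59 as reported). Ventral partners were 8 with GC and length and 8 with the block added. Without a filter the median of all genes was 0.11.

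Ntng1 passed the test ventrally with GC and length (-0.33, adjusted p = 0.0484 in edgeR) and with span (-0.36, adjusted p = 0.034), as did Unc5c with the block and GC (-0.38, adjusted p = 0.033). Relative to the median of all genes, which these corrections lowered, Ntng1 was at -0.16 and -0.22, against -0.17 as reported. With GC and length it thus moved no further than that median. Unc5c was at -0.20 on that scale, against -0.022 as reported. The covariate moved Ntn1 to 2.5, Dcc to 0.55, Unc5a to -1.27 and Unc5d to -0.075, none past the test. Other changes turned the direction of genes near 0 without passing: Ntng2 to 0.017, 0.16 and 0.12 under the 3 corrections and 0.33 with the covariate, Dcc to -0.14, -0.096 and -0.082 under the corrections, Unc5a to 0.10 with the span correction, and Unc5c to 0.0018 with DESeq2's size factors, 0.014 with upper-quartile factors, 0.00085 with protein-coding genes alone and 0.40 with the covariate. Taken relative to the median of all genes, Dcc stayed above 0 under the corrections (0.029, 0.082 and 0.064). On that scale Unc5c stayed below 0 with DESeq2's size factors and with upper-quartile factors (-0.022 and -0.021). Without single libraries Ntng2 ranged from -0.25 to 0.11, Unc5a from -0.27 to 0.14 and Unc5c from -0.11 to 0.070. Without length scaling, netrin-G2 was 36.3% of netrin-G dorsally and 33.3% ventrally, and Dcc 24.2% and 29.6% of Dcc and Neo1. The cause of these changes was not tested.

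Over all tested genes, libraries of equal number showed little shared deviation (correlations of -0.032 to 0.069, mean 0.016, against -0.0021 for different numbers). In the share of pairs outside genes, however, library 1 was lowest (21.8% dorsally, 11.6% ventrally) and library 3 highest (33.9 and 19.3%) in both regions. Whether equal numbers come from the same mice is thus not settled here. With the replicate number as a block Ntn1 was also called (1.42, adjusted p = 0.0354 in edgeR), and no other member's call changed. Depth limits Ntn1 most, with 0 to 36 counts a library.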
